A study of Mus musculus with 44 samples.

Results

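This account follows 9 genes of the enterocyte brush border, the apical membrane on which the small intestine digests and absorbs nutrients, out of 21099 genes counted in organoids given RANKL and 9257 genes counted in organoids given RANKL together with CSRM617. They were taken by name as 6 membrane-bound digestive enzymes (Sis, Alpi, Treh, Lct, Anpep and Dpp4) and 3 nutrient transporters (Slc5a1, Slc2a2 and Slc15a1). No rule on measured values was used, but earlier results of these data were known when they were chosen. All 9 were present in both count tables.

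Mouse small intestinal organoids of a single line, line26 wild type with the genotype Lgr5GFPDTR/+, had been derived from a female animal that carried a knock-in of GFP and the diphtheria toxin receptor at Lgr5. All organoids, day 0 included, were first held for 3 days in ENR medium (EGF, Noggin and R-spondin 1) with 3 µM CHIR99021, a GSK3 inhibitor that activates Wnt signalling, and 1.5 mM valproic acid, a histone deacetylase inhibitor, and then for 1 day in plain ENR. One set was then given 100 ng/mL RANKL, the cytokine that induces microfold (M) cells, with 40 µM CSRM617, an inhibitor of the transcription factor ONECUT2, and was sampled daily on days 0 to 6 with 2 plates per day. The other set was given 100 ng/mL RANKL alone and was sampled daily on days 0 to 9 with 3 plates per day. Viable single cells were sorted by scatter alone into 384-well plates and sequenced from the 3′ ends of their transcripts with unique molecular identifiers (UMIs), so that each count is a transcript molecule rather than a read. Organoids kept in ENR without RANKL on later days were not analysed here, so a change from day 0 joins the effect of RANKL with that of time in culture.

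The brush border is built by absorptive enterocytes, which mature as they leave the crypt. Its disaccharidases and peptidases cut the last bonds of dietary sugars and peptides at the cell surface, and transporters beside them take up the products: Slc5a1 (SGLT1) moves glucose and galactose with sodium, Slc15a1 (PEPT1) moves di- and tripeptides with protons, and Slc2a2 (GLUT2) passes hexoses on towards the blood. Sis (sucrase-isomaltase), Alpi (intestinal alkaline phosphatase), Treh (trehalase), Lct (lactase), Anpep (aminopeptidase N) and Dpp4 (dipeptidyl peptidase 4) are the surface enzymes among them, and Sis, Alpi and Lct are widely used markers of the enterocyte. M cells, the fate that RANKL promotes, are known for a sparse and irregular brush border.

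The genes lie apart on 7 chromosomes of GRCm38, with the strand of each in the GENCODE M21 annotation. Sis spans chromosome 3 from 72888557 to 72967863 on the minus strand, and Slc2a2 spans chromosome 3 from 28697903 to 28731359 on the plus strand. Alpi (87098002 to 87101606) and Lct (128284756 to 128328318) are both on the minus strand of chromosome 1. Treh occupies chromosome 9 from 44673233 to 44686305 and Slc5a1 chromosome 5 from 33104219 to 33162870, both on the plus strand. Anpep (chromosome 7, 79821803 to 79861059), Dpp4 (chromosome 2, 62330073 to 62412231) and Slc15a1 (chromosome 14, 121459621 to 121505252) are on the minus strand. Alpi has a near copy beside it, Akp3. Of the distinct 31-base words in the annotated Alpi transcripts, 7.07% also occur in transcripts of other genes, but none of those in their last 500 bases do.

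The promoters of 5 members are printed because their genes carry the contrast described below: Sis, Alpi, Treh and Slc5a1 were all low by day 6 of RANKL, whereas Dpp4, also low on day 6, had day 9 plates that overlapped those of day 0. Each is the RefSeq sequence (GRCm38.p6) from 250 bases before to 50 bases after the annotated start, read on the gene's own strand. Capitals mark matches, on either strand, to short words taken from motifs of factors known to act in enterocytes or at promoters: the HNF1 word GTTAAT, the CDX word TTTATG, the GATA-factor word AGATAA, the HNF4 word CAAAGTCCA, the ONECUT word ATTGAT and the TATA-box word TATAAA.
Sis promoter, chr3:72967814-72968113, minus strand: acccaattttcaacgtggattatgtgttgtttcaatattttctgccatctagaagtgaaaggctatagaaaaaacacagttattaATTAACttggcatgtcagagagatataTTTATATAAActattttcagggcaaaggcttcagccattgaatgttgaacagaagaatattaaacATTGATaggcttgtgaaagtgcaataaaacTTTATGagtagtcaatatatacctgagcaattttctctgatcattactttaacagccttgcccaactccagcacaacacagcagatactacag
Alpi promoter, chr1:87101557-87101856, minus strand: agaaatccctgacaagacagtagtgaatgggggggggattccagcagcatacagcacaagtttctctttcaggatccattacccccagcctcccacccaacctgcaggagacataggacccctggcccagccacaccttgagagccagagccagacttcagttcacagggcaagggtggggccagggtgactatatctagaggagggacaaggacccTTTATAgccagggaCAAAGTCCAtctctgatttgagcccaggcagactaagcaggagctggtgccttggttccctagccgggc
Treh promoter, chr9:44672983-44673282, plus strand: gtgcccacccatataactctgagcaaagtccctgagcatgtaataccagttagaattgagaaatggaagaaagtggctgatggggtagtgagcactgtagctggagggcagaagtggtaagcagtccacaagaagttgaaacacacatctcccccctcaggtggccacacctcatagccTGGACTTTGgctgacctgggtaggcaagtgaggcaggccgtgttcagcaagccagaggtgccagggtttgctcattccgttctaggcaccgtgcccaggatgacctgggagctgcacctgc
Slc5a1 promoter, chr5:33103969-33104268, plus strand: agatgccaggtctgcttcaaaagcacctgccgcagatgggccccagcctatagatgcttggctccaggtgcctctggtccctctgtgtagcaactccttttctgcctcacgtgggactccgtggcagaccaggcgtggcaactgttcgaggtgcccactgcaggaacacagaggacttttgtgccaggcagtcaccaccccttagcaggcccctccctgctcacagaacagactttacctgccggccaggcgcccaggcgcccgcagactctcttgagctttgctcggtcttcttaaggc
Dpp4 promoter, chr2:62412182-62412481, minus strand: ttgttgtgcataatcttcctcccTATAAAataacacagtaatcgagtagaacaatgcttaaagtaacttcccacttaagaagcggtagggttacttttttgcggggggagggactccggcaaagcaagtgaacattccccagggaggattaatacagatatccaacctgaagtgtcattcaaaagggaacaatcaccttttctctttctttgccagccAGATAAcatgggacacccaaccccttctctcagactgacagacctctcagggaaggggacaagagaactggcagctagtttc
The Sis promoter held words of 4 of the 6 motifs: ATTAAC, the HNF1 word on the opposite strand, 165 bases before the start (position -165), ATTGAT at -73, TTTATG at -43, and 2 overlapping TATA words at -138 and -134. The 9-base HNF4 word lay in the Alpi promoter at -19 and, on the opposite strand, in the Treh promoter at -71. That word occurred in 0.475% of 32851 mouse promoters of this length and in 2 of the 9 members. The Alpi promoter also held TTTATA, the TATA word on the opposite strand, at -33. The Dpp4 promoter held AGATAA at -32 and TATAAA at -227, and the Slc5a1 promoter none of the 6 words. The other words are common, from 7.10% of all promoters for GTTAAT to 13.6% for TATAAA. These are matches of letters and were not tested for binding.

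Cells with at least 1000 UMIs were kept, which left 6558 cells on the 30 RANKL plates and 1673 cells on the 14 RANKL+CSRM617 plates. Summed over their kept cells, the RANKL+CSRM617 plates held 47976 to 835772 UMIs and 24 to 223 cells, and the RANKL plates held 155940 to 1640523 UMIs and 26 to 282 cells. The day 4 plates of both arms held 24 to 120 cells, and the second day 0 plate of RANKL held 26 cells. No cell carried the same counts as another cell. Levels below are UMIs of a gene per 1000000 UMIs of a plate after TMM scaling (CPM), and tests are edgeR quasi-likelihood tests on plate sums with Benjamini-Hochberg adjustment over all genes tested, called at an adjusted p under 0.05. The labels do not say that plates of a day came from separate cultures, so p-values rest on plate-to-plate spread alone, some or all of it possibly technical. A plate sum also cannot tell fewer cells of a type from less RNA per cell.

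Sis, the disaccharidase that splits sucrose and isomaltose, was counted most often. On the RANKL plates it stood at 2980.4, 2252 and 2892 CPM on day 0, at 1912, 1509 and 1293 CPM on day 1, at 1561, 950.3 and 1113 CPM on day 2, and at 4180.3, 4549.9 and 4496 CPM on day 3. Day 4 was spread over 363, 3139 and 1536 CPM, day 5 gave 2113, 3109 and 3373 CPM, and day 6 gave 545, 455 and 519 CPM. All 3 plates of day 3 were thus above, and all 3 plates of day 6 below, every plate of day 0, and from day 7 to day 9 no plate passed 1234 CPM. The fall by day 6 was 2.43 on the log2 scale (SE 0.36, edgeR adjusted p = 1.41e-06). The differences on day 1 (log2 -0.79, SE 0.34, edgeR adjusted p = 0.0904) and day 3 (log2 0.70, SE 0.34, edgeR adjusted p = 0.153) against day 0 did not pass when all days shared an estimate of the spread. They did with a fit of only the groups compared, at edgeR adjusted p = 0.00253 for day 1 and 0.00337 for day 3. They also did without a filter on low counts, at edgeR adjusted p = 2.30e-06 for day 1 and 1.22e-05 for day 3. Fold changes hardly moved in these fits (log2 -0.80 and 0.72 in the first, -0.76 and 0.71 in the second). The smaller p-values thus rest on how the spread was estimated.

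Alpi, the alkaline phosphatase that detoxifies bacterial lipopolysaccharide, was like Sis lower on day 1 than on day 0 and higher on day 3 than on day 1. Unlike Sis, Alpi was not above all day 0 plates on day 3, and it parted further from Sis by day 5. It read 875, 539 and 1124 CPM on day 0, 338, 221 and 306 CPM on day 1, 467, 628 and 566 CPM on day 3, 105, 174 and 129 CPM on day 5, and 32.7, 32.1 and 23.5 CPM on day 6. On day 5, when Sis was at log2 0.07 of its day 0 level (SE 0.34, edgeR adjusted p = 0.896), Alpi was lower by 2.69 (log2 fold change -2.69, SE 0.34, edgeR adjusted p = 9.12e-08). This comparison of day 5 was chosen after the plate values were seen, and the difference between the 2 genes was not itself tested. By day 6 the log2 fold change of Alpi had reached -4.90 (SE 0.40, edgeR adjusted p = 4.69e-12), with all 3 plates under every earlier plate of the arm. On day 9 the plates read 42.9, 101 and 62.2 CPM, a log2 fold change of -3.64 over day 0 (SE 0.36, edgeR adjusted p = 9.17e-10).

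Slc5a1, the sodium-glucose cotransporter, was at 484, 629 and 538 CPM on day 0, 314, 183 and 176 CPM on day 1, 399.6, 409.8 and 389 CPM on day 3, 259, 314 and 257 CPM on day 5, 111, 103 and 95.7 CPM on day 6, and 231, 186 and 174 CPM on day 9. The day 1, day 3, day 5, day 6 and day 9 plates were each below all day 0 plates. Slc5a1 was not called on day 3 against day 0, with a log2 fold change between -0.46 and -0.34 under the alternatives run. Its log2 fold change over day 0 was -1.26 on day 1 (SE 0.21, edgeR adjusted p = 2.05e-05) and -2.38 on day 6 (SE 0.23, edgeR adjusted p = 1.65e-10). Between day 6 and day 9 it rose again, by 0.92 on the log2 scale (SE 0.23, edgeR adjusted p = 0.0233). That rise, also chosen after the values were seen, lost its call without any of 5 of the 6 plates, all except the third plate of day 9 (edgeR adjusted p = 0.0562 to 0.112).

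Treh, which splits trehalose, was counted rarely, with 8, 1 and 10 UMIs on the day 0 plates and 16, 22 and 8 UMIs on the day 3 plates. Only 2, 1 and 1 UMIs were left on the day 6 plates and 0, 2 and 1 UMIs on the day 9 plates. The log2 fold change over day 0 was -2.63 on day 6 (SE 0.88, edgeR adjusted p = 0.0166) and -2.74 on day 9 (SE 0.94, edgeR adjusted p = 0.0213). The day 6 call was lost without the third plate of day 0 or the second or the third plate of day 6 (edgeR adjusted p = 0.0533 to 0.0791). The day 9 call was lost without the first or the third plate of either day (edgeR adjusted p = 0.0510 to 0.0865).

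**Figure D1:**
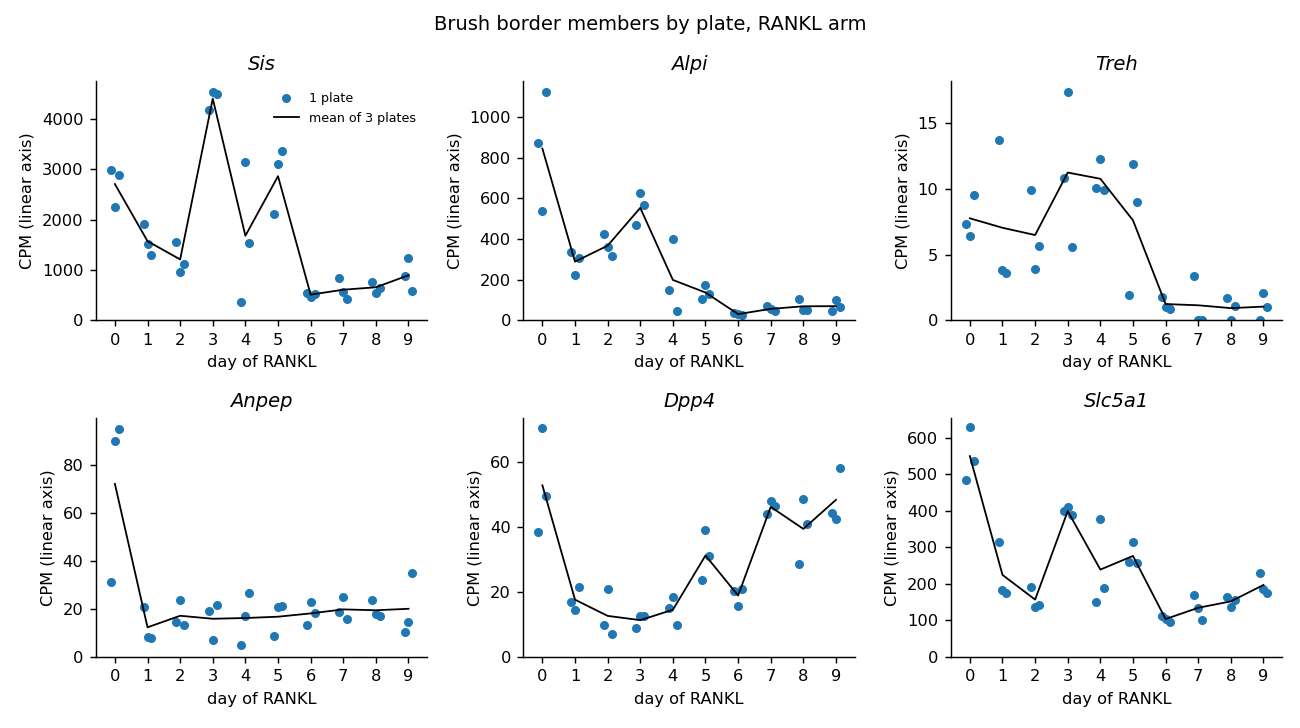
Levels of the 6 members that passed the filter on low counts, in CPM on a linear axis that differs between panels, against the day of RANKL; each point is 1 plate and the line joins the means of 3 plates. Sis, Alpi and Slc5a1 dip on days 1 and 2, stand higher on day 3 and are low from day 6, whereas Dpp4 is lowest on days 2 and 3 and high again from day 7.

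The peptidases Anpep and Dpp4 took other courses. Anpep, which removes single residues from the amino end of peptides, was at 31.3, 89.8 and 95.2 CPM on day 0 and at 20.6, 8.41 and 7.89 CPM on day 1, and no later plate of the arm passed 35.1 CPM, so that later plates overlapped the first plate of day 0 alone. It fell by 2.40 on the log2 scale on day 1 (SE 0.42, edgeR adjusted p = 4.00e-05) and was still lower by 1.68 on day 9 (log2 fold change -1.68, SE 0.42, edgeR adjusted p = 0.00188). The day 9 call rested on the third plate of day 0, without which the log2 fold change was -1.09 (edgeR adjusted p = 0.106). Unlike Sis, Anpep did not pass the test between day 3 and day 1 (log2 0.35, SE 0.45, edgeR adjusted p = 0.653).

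Dpp4, which clips dipeptides and inactivates incretin hormones, read 38.6, 70.6 and 49.5 CPM on day 0, 16.8, 14.5 and 21.5 CPM on day 1, 8.82, 12.6 and 12.5 CPM on day 3, 20.3, 15.5 and 20.9 CPM on day 6, and 44.4, 42.7 and 58.2 CPM on day 9. The plates of days 1, 3 and 6 were all below those of day 0, and the plates of day 9 overlapped them. The log2 fold change over day 0 was -2.06 on day 3 (SE 0.31, edgeR adjusted p = 3.06e-06) and 0.04 on day 9 (SE 0.27, edgeR adjusted p = 0.918). From day 6 to day 9 Dpp4 rose by 1.35 (SE 0.28, edgeR adjusted p = 0.00439), in a comparison chosen after the values were seen.

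Lct, Slc2a2 and Slc15a1 were too rare for the main test in the RANKL arm. Lct gave 22 UMIs in 6558 cells. No Lct UMI was found in the 737 cells of day 1, which allows a share of cells with a UMI of up to 0.407%, in the 773 cells of day 6 (up to 0.388%) or in the 642 cells of day 9 (up to 0.467%). These limits are 3 counts divided by the number of cells. They lie below the upper end of an exact 95% interval, which is 0.499% for day 1. Both cover counting error only. Slc2a2 had 3, 0 and 0 UMIs on the day 0 plates, 10, 3 and 7 on the day 1 plates, 7, 6 and 12 on the day 3 plates and 4, 0 and 0 on the day 6 plates.

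Slc15a1, like Lct and Slc2a2, was nearly unseen on day 0. Its day 0 plates held 0, 0 and 1 UMIs, against 8, 8 and 3 UMIs on day 1, 7, 22 and 9 UMIs on day 2, 3, 3 and 4 UMIs on day 3 and none on day 8. In the fit without a filter the higher level on day 1 over day 0 had an edgeR adjusted p of 0.0487. That value rests on this fit alone, which gave Sis smaller p-values at similar fold changes. Those 38 UMIs of day 2 came from 19 of 698 cells (2.72%, exact 95% interval 1.65 to 4.22%).

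By count, 4 of the 6 members tested fell on day 1 (edgeR), where 12.3% of 10000 genes tested were called lower and 23.8% were called in either direction. On day 3 against day 0 the count was 2 of 6, Anpep and Dpp4, where 10.2% of genes were called lower and 20.4% either way. All 6 tested members were called lower on day 6 against day 0, in a comparison in which 19.4% of genes were called lower and 38.3% either way; their median log2 fold change was -2.40, beside 0.04 over all genes tested. On day 9, 5 of 6 were called lower (18.4% of genes lower, 36.4% either way). On day 5, 3 of 6 were called lower, Alpi, Anpep and Slc5a1 (17.2% of genes lower, 34.4% either way). Between days 1 and 3, Sis rose by 1.49 (SE 0.34, edgeR adjusted p = 0.00211), Slc5a1 by 0.83 (SE 0.20, edgeR adjusted p = 0.00363) and Alpi by 0.94 (SE 0.31, edgeR adjusted p = 0.0279), where 9.34% of genes were called higher and 18.3% either way. The call of Alpi in that comparison was lost without any of 4 of the 6 plates, the second or the third of day 1 or of day 3 (edgeR adjusted p = 0.0577 to 0.140), and with DESeq2 (adjusted p = 0.148). Between days 3 and 6, Alpi, Sis, Treh and Slc5a1 were called lower (15.6% of genes lower, 28.9% either way). Between days 6 and 9, Dpp4 and Slc5a1 were called higher (1.08% of genes higher, 2.08% either way). The comparisons with day 0 share its 3 plates.

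**Figure D2:**
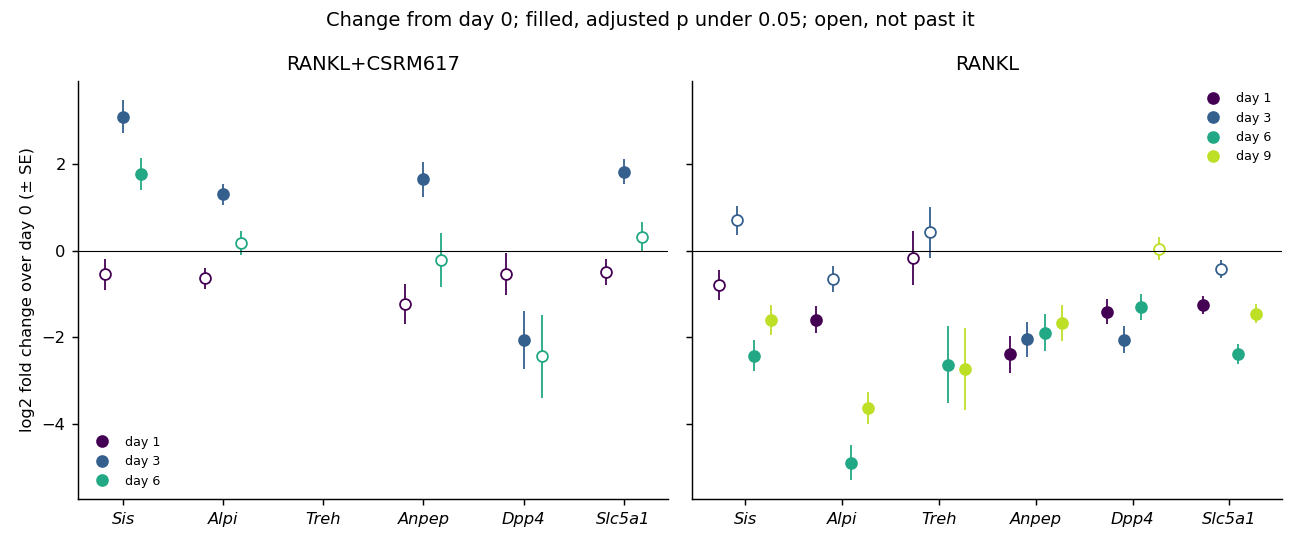
Log2 fold change of each member over day 0 with its standard error, in RANKL+CSRM617 organoids (left; Treh was below the filter) and RANKL organoids (right), by day; filled points had an edgeR adjusted p under 0.05. Day 3 lies above 0 for Sis, Alpi, Anpep and Slc5a1 with CSRM617, and day 6 lies below 0 for all 6 members with RANKL alone.

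Other brush border genes were described by 4 lists. In the RANKL arm on day 6 against day 0, 17 of 20 tested nutrient and solute transporters other than the members were called lower and none higher, with a median log2 fold change of -2.27, where 19.4% of all genes tested were called lower and 38.3% either way. Slc9a3, the sodium-proton exchanger NHE3, averaged 0.690 ± 1.19 CPM on day 6 and 83.3 ± 1.41 CPM on day 0 (SD, n = 3 plates each; edgeR adjusted p = 2.33e-10). The amino acid carriers Slc7a8 (1.22 ± 0.458 CPM on day 6, 43.5 ± 21.4 CPM on day 0) and Slc6a19 (1.47 ± 1.84 CPM on day 6, 33.6 ± 18.6 CPM on day 0) were likewise called lower. Of 20 tested genes listed by name under microvillus structure, a list that includes Plac8, 14 were called lower and 1, Ezr, higher. Myo1a, the motor that ties the actin core to the membrane, had a log2 fold change of -3.06 (SE 0.29), Plac8 of -2.46 (SE 0.18) and Cdhr5, a protocadherin of the links between microvilli, of -2.13 (SE 0.41).

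Among 12 other brush border enzymes, 6 were called lower and 1 higher on day 6, beside the same 19.4% of genes lower and 38.3% either way. Enpep, the glutamyl aminopeptidase, was at 3.51 ± 3.53 CPM on day 6 and 109.8 ± 36.1 CPM on day 0, and Mep1b, a meprin subunit, had a log2 fold change of -2.61 (SE 0.30). Enpp3, an ectonucleotide phosphodiesterase, was the enzyme called higher, at 17.2 ± 4.31 CPM on day 6 (56 UMIs) and 0.307 ± 0.531 CPM on day 0 (1 UMI). Among 18 transcription factors of the enterocyte, 10 were called lower and 3 higher: Creb3l3 had a log2 fold change of -4.15 (SE 0.37), Ppara of -2.48 (SE 0.56) and Nr1h4, the bile acid receptor, of -2.18 (SE 0.32). Cdx1, Onecut2 and Smad4 were the 3 called higher; these and Ezr are named because their counts were small, after their values were seen.

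On day 3 against day 0 these lists were split, where 10.2% of all genes tested were called lower and 20.4% either way. Transporters counted 10 lower and 2 higher of 20, with Slc6a19 at a log2 fold change of -4.28 (SE 0.57) and the aromatic amino acid carrier Slc16a10 at -2.54 (SE 0.36). The other enzymes counted 3 higher and 2 lower of 12: Asah2, the neutral ceramidase, was at 656 ± 34.4 CPM on day 3 and 60.0 ± 29.8 CPM on day 0 (log2 fold change 3.21, SE 0.31), and Mme, neprilysin, rose by 2.36 (SE 0.52). Microvillus genes counted 6 lower and 1 higher of 20, led by Espn (-1.27, SE 0.34) and Eps8 (-1.11, SE 0.15), with Myo1d next in size. Transcription factors counted 3 higher and 2 lower of 18. Onecut2, the protein product of which CSRM617 targets, had a log2 fold change of 1.66 (SE 0.15, edgeR adjusted p = 1.28e-10), beside -2.28 for Nr1h4 (SE 0.32) and 0.75 for Cdx1 (SE 0.19).

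Across the 10 daily means of the RANKL arm, Sis and Slc5a1 ran most alike of the 15 pairs of members (Pearson r = 0.898), followed by Alpi and Sis (r = 0.833) and Sis and Treh (r = 0.827). Dpp4 ran against Treh (r = -0.576) and was near unrelated to Slc5a1 (r = 0.0602). Of 5445 genes that are no members, ranked by likeness to the mean profile of the 6 members that passed the filter, the 6 closest were Slc35g1 (r = 0.979), Sec24a, Ces2e, Sult1b1, Strn and Abcg2 (r = 0.965), and the 3 farthest were Mbtps1, Setdb1 and Rhbdf1 (r = -0.973). The days share a time course, so these values describe 10 points and carry no test.

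In the arm with CSRM617, Sis, Alpi, Anpep and Slc5a1 were higher on day 3 than on day 0, and Dpp4 was lower. On the scale of that arm, Sis was at 592 and 620.2 CPM on day 0, 348 and 481 CPM on day 1, 584 and 660.3 CPM on day 2, 5468 and 4854 CPM on day 3, 1242 and 1708 CPM on day 4, 110.5 and 491 CPM on day 5, and 2520.3 and 1594 CPM on day 6. Both plates of day 3 were above every other plate of the arm, and both plates of day 5 were below those of day 4 and day 6. The log2 fold change over day 0 was 3.09 on day 3 (SE 0.38, edgeR adjusted p = 2.61e-06) and 1.76 on day 6 (SE 0.37, edgeR adjusted p = 0.00338). The day 6 call was lost without the first plate of day 6 (log2 1.39, edgeR adjusted p = 0.0894).

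Slc5a1 read 867 and 707 CPM on day 3 against 199 and 250.1 CPM on day 0 (log2 fold change 1.82, SE 0.29, edgeR adjusted p = 6.57e-05). Anpep read 141 and 139.6 CPM on day 3 against 52.9 and 33.9 CPM on day 0 (log2 1.64, SE 0.41, edgeR adjusted p = 0.00612), and its call was lost without the second plate of day 0 (edgeR adjusted p = 0.0537). Alpi read 609 and 649.6 CPM on day 3 against 309.8 and 195 CPM on day 0 (log2 1.30, SE 0.24, edgeR adjusted p = 0.000439). For all 3 genes the day 3 plates were above both day 0 plates.

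Dpp4 went the other way, at 6.88 and 15.2 CPM on day 3 against 32.7 and 67.7 CPM on day 0. With 2 and 5 UMIs on the day 3 plates its log2 fold change of -2.07 (SE 0.67, edgeR adjusted p = 0.0328) was lost without any of 3 of the 4 plates, all except the first of day 0 (edgeR adjusted p = 0.0881 to 0.238), and with DESeq2 (adjusted p = 0.0786). Treh, below the filter here, had 9 and 8 UMIs on day 3, 0 and 1 UMIs on day 0 and none on days 4 and 5; without the filter its day 3 difference from day 0 had an edgeR adjusted p of 0.00983. Slc15a1 had 6 and 4 UMIs on day 3 and none on days 0 and 1 (without the filter, day 3 against day 0, edgeR adjusted p = 0.0244). For Treh and Slc15a1 these values rest on the fit without the filter alone. In the RANKL arm that fit gave Sis smaller p-values at similar fold changes.

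By count, none of the 5 members tested was called on day 1 against day 0 with CSRM617 (edgeR; 4.37% of 6499 genes were called). At an unadjusted p under 0.05 there were 2, Alpi and Anpep, and DESeq2 called 0. On day 3, 4 of 5 were called higher, where 10% of genes were called higher, 7.96% lower and 18% either way; the median over the members was 1.64, beside -0.05 over all genes tested. Against day 1, the same 4 genes of day 3, Sis, Alpi, Anpep and Slc5a1, were called higher (9.31% of genes higher, 16.6% either way), with log2 fold changes of 3.64, 1.94, 2.88 and 2.31. On day 6 against day 0, only Sis of the 5 was called (4.55% of genes higher, 7.51% either way). From day 3 to day 6, Slc5a1 fell by 1.50 (SE 0.32, edgeR adjusted p = 0.0315; 0.354% of genes lower, 0.446% either way), a call that leaving out any of the 4 plates ended (edgeR adjusted p = 0.0932 to 0.347).

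The other lists were in part higher on the same day. On day 3 against day 0 with CSRM617, 7 of 8 tested enzymes, 8 of 17 microvillus genes, 5 of 14 transcription factors and 3 of 12 transporters were called higher, against 1 microvillus gene called lower, where 10% of all genes tested were called higher and 18% either way. Median log2 fold changes were 2.07 for the enzymes, 0.57 for the microvillus genes, 0.31 for the transcription factors and 0.98 for the transporters.

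The arms were then set side by side with plates of days 0 to 6 scaled together, so that CPM values differ slightly from those above. The arms differed already on day 0, when neither RANKL nor CSRM617 had been given, and were deposited as separate tables; what else differed between them cannot be told apart from the treatment. Sis was at 621 and 654 CPM on day 0 in RANKL+CSRM617 organoids, against 2879, 2302 and 2742 CPM in RANKL organoids (log2 fold change -2.06, SE 0.44, edgeR adjusted p = 0.00113). Alpi was at 325 and 206 CPM in RANKL+CSRM617 organoids, against 845, 551 and 1066 CPM in RANKL organoids (log2 -1.64, SE 0.36, edgeR adjusted p = 0.00151). Slc5a1 was at 209 and 264 CPM with CSRM617, against 468, 643 and 509.9 CPM with RANKL alone (log2 -1.17, SE 0.28, edgeR adjusted p = 0.00451). None of these plates overlapped between arms, and 3 of 7 members tested were called lower where 7.07% of 8766 genes were called lower and 9.82% either way. Enterocyte-like cells, by the clusters described further on, averaged 3.12% of the day 0 cells with CSRM617 and 45.4% with RANKL alone, and stem-like cells 47.5% with CSRM617 and 1.18% with RANKL alone. Cells of unnamed clusters averaged another 40.0% with CSRM617 and 48.1% with RANKL alone. Among them was a cluster led by Fabp1 with CSRM617, with 104 of the 345 day 0 cells of that arm, which had 2 of the 3 enterocyte markers needed for a name (Fabp1 and Gstm3), so that the contrast in enterocyte-like shares depends on that requirement. The stem-like cluster with CSRM617 had 3 stem markers (Rgcc, Lgr5 and Smoc2), the fewest that give a name. The contrast in stem-like shares therefore also depends on that requirement. Each arm was clustered by itself, and the part of these shares in the difference was not tested. The call of Alpi was lost without the second day 0 plate of RANKL+CSRM617 (edgeR adjusted p = 0.0660) and that of Slc5a1 without the first (edgeR adjusted p = 0.111).

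Over days 1 to 3, Anpep was higher with CSRM617 (log2 1.78, SE 0.29, edgeR adjusted p = 1.10e-05; 13.4% of genes higher) and Sis was lower (log2 -0.73, SE 0.24, edgeR adjusted p = 0.0178; 15.1% of genes lower, 28.6% either way). The call of Sis was lost without the first day 1 plate of RANKL+CSRM617 (edgeR adjusted p = 0.0677). On day 3 itself, a day picked after the values were seen, Anpep read 154 and 154 CPM with CSRM617, against 18.6, 6.91 and 21.1 CPM with RANKL alone. That was a log2 fold change of 3.28 (SE 0.44, edgeR adjusted p = 7.97e-07), and every plate with CSRM617 was above every plate without it.

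Slc5a1 read 949 and 781 CPM on day 3 with CSRM617, against 392, 398 and 382 CPM with RANKL alone (log2 1.14, SE 0.25, edgeR adjusted p = 0.00140), and lost its call without the first of the day 3 plates with CSRM617 (edgeR adjusted p = 0.0534). Slc15a1 was called higher from 10 UMIs on 2 plates (log2 2.85, SE 0.93, edgeR adjusted p = 0.0348), a call that leaving out any of the 5 plates ended (edgeR adjusted p = 0.0559 to 0.299). Sis did not pass on day 3 (log2 0.39, SE 0.39, edgeR adjusted p = 0.567). Of 7 members tested, 3 were called higher, where 6.95% of genes were called higher and 13.8% either way.

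Over days 4 to 6 no member was called between the arms (edgeR; 22.4% of genes called). At an unadjusted p under 0.05 there were 2, Alpi and Dpp4, and DESeq2 called 1, Alpi. Days 5 and 6, again picked after the values were seen, ran in opposite directions for Sis. On day 5 Sis was at 114 and 499 CPM with CSRM617, against 2017, 3010.4 and 3262 CPM with RANKL alone (log2 -3.31, SE 0.50, edgeR adjusted p = 7.91e-06). On day 6 it was at 2637 and 1631 CPM with CSRM617, against 523, 437 and 500.1 CPM with RANKL alone (log2 2.13, SE 0.41, edgeR adjusted p = 0.000205). Neither day overlapped between arms.

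Alpi on day 6 read 254 and 342 CPM with CSRM617, against 31.3, 30.8 and 22.7 CPM with RANKL alone (log2 3.40, SE 0.50, edgeR adjusted p = 3.19e-06). Slc5a1 was lower on day 5 (log2 -1.34, SE 0.35, edgeR adjusted p = 0.00884) and higher on day 6 (log2 1.54, SE 0.35, edgeR adjusted p = 0.00167). Each of these Slc5a1 calls was lost without the first plate of that day with CSRM617 (edgeR adjusted p = 0.396 for day 5 and 0.200 for day 6). Dpp4 was called lower on day 5 from 3 and 0 UMIs (log2 -2.30, SE 0.76, edgeR adjusted p = 0.0429) and lost that call without any of 4 of the 5 plates, all except the first of RANKL (edgeR adjusted p = 0.0588 to 0.204). Members called lower on day 5 numbered 3 of 7 (6.51% of genes lower, 11% either way), and members called higher on day 6 numbered 3 of 7 (9.55% of genes higher, 17.6% either way). The plates with CSRM617 on these days held 53 to 102 cells.

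**Figure D3:**
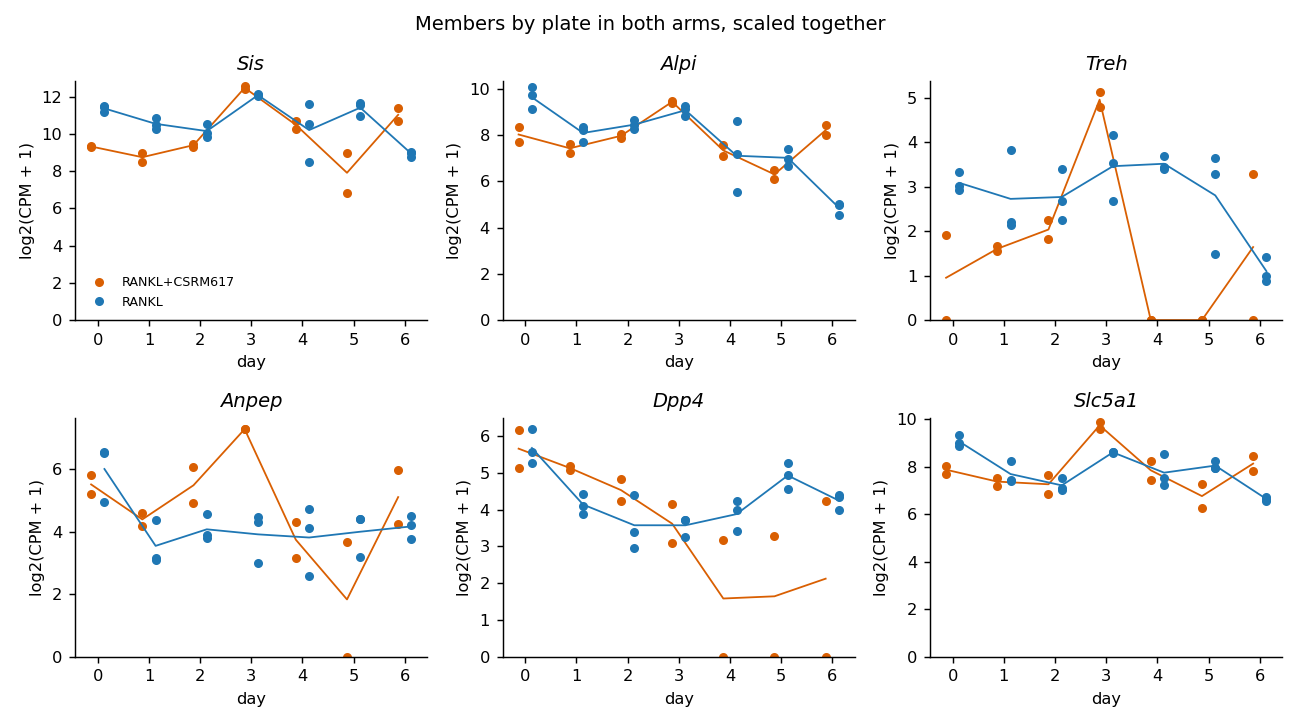
Levels of 6 members as log2(CPM + 1) by day, for RANKL+CSRM617 plates (orange) and RANKL plates (blue) scaled together; each point is 1 plate and lines join means. The arms differ on day 0 for Sis, Alpi and Slc5a1, Anpep stands apart on day 3, and Sis crosses between day 5 and day 6.

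Because the arms began unequal, the change from day 0 was compared between them. From day 0 to days 1 to 3 the change with CSRM617 was higher than with RANKL alone for Anpep (difference of log2 changes 2.23, SE 0.54, edgeR adjusted p = 0.0114), Slc5a1 (1.47, SE 0.32, edgeR adjusted p = 0.00575) and Alpi (1.36, SE 0.40, edgeR adjusted p = 0.0450). That was 3 of 7 members where 2.74% of genes were called higher and 4.1% either way. From day 0 to days 4 to 6 it was higher for Alpi (2.35, SE 0.47, edgeR adjusted p = 0.00137), Sis (1.59, SE 0.49, edgeR adjusted p = 0.0440) and Slc5a1 (1.18, SE 0.35, edgeR adjusted p = 0.0373), where 3.14% of genes were called higher and 6.34% either way. From day 0 to day 3 alone it was higher for Anpep (3.72, SE 0.63, edgeR adjusted p = 0.000229), Sis (2.45, SE 0.57, edgeR adjusted p = 0.00709), Slc5a1 (2.31, SE 0.38, edgeR adjusted p = 0.000143) and Alpi (2.00, SE 0.48, edgeR adjusted p = 0.00866), where 3.82% of genes were called higher and 5.46% either way. These differences take in the lower day 0 levels of Sis, Alpi and Slc5a1 in the arm with CSRM617.

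Several of these calls of a change were lost when a plate was left out or under other settings. That of Alpi to days 1 to 3 was lost in 15 of 20 fits that left out a plate (edgeR adjusted p = 0.0512 to 0.334), all except those without the first day 1 plate of RANKL+CSRM617 or, of RANKL, the second of day 0, the first of day 1, the first of day 2 or the second of day 3. That of Anpep to days 1 to 3 was lost without the second day 0 plate of RANKL+CSRM617 (edgeR adjusted p = 0.109) or the third day 0 plate of RANKL (0.156), and that of Slc5a1 without the first day 0 plate of RANKL+CSRM617 (0.0812). To days 4 to 6, Sis lost its call in 12 of 20 fits (edgeR adjusted p = 0.0512 to 0.183): without either plate of day 0 or day 4, the second of day 5 or the first of day 6 of RANKL+CSRM617, or without the first or the third of day 0, the third of day 4, the first of day 5 or the second or the third of day 6 of RANKL. Slc5a1 lost its call to days 4 to 6 in 7 of 20 (edgeR adjusted p = 0.0683 to 0.217): without either plate of day 0, the second of day 4, the second of day 5 or the first of day 6 of RANKL+CSRM617, or the second or the third of day 0 of RANKL. Alpi to day 3 lost its call without the second plate of day 0 (edgeR adjusted p = 0.0939) or of day 3 (0.0649) of RANKL+CSRM617. Other settings ended calls too (adjusted p, edgeR unless named). Alpi to days 1 to 3 lost its call with DESeq2 (0.115), 2000 or more UMIs per cell (0.0523) or equal cell weights (0.0692). Sis to days 4 to 6 lost its call with DESeq2 (0.0683), 2000 or more UMIs (0.128) or only the groups compared (0.0946). Slc5a1 to days 4 to 6 lost its call with 2000 or more UMIs (0.0896). Sis to days 1 to 3 gained a call with only the groups compared (0.00173).

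Other brush border genes were counted in the same way. In the change to days 1 to 3, 4 of 21 transporters, 6 of 20 microvillus genes, 1 of 10 enzymes and 3 of 18 transcription factors were called higher and none of these lists had a gene called lower, where 2.74% of all genes tested were called higher and 4.1% either way. They were led by Slc7a9, a carrier of cystine and dibasic amino acids (1.69, SE 0.41), the iron exporter Slc40a1 (1.55, SE 0.44), Slc3a2 (1.49, SE 0.24), Plac8 (1.50, SE 0.24), Cobl (1.49, SE 0.34), Myo5b (1.28, SE 0.26), Enpep (1.52, SE 0.45), Pparg (1.81, SE 0.40), Creb3l3 (1.63, SE 0.33) and Gata4 (1.03, SE 0.25). To days 4 to 6, 6 microvillus genes (among them Cdhr5 at 1.97, SE 0.52, and Vil1, villin, at 1.19, SE 0.23) and 4 transcription factors were called higher, and no enzyme or transporter was, where 3.14% of genes were called higher and 6.34% either way.

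Single cells were grouped by clustering without the 9 members, and each cluster is given by its leading genes. It was named, as for example enterocyte-like, only where at least 3 markers of a class were among its 50 leading genes, at least 1 of them among the first 10. In the RANKL arm the highest levels were in a cluster of 248 cells led by Reg1, G6pc and Reg3b with Apoa4 (enterocyte-like). It was 3.78% of the cells and held 52.6% of the Sis UMIs of the arm, 33.4% of the Slc5a1 UMIs and 65.5% of the Treh UMIs, with 5.15% of all UMIs. It also held 71.0% of the Slc15a1 UMIs, 74.2% of the Slc2a2 UMIs and 63.6% of the Lct UMIs. Levels in cells of a cluster are their summed UMIs per 1000000, without TMM scaling. In these cells Sis stood at 17797 per 1000000, Slc5a1 1504, Alpi 1273, Anpep 74.7, Treh 67.5, Slc15a1 42.8, Slc2a2 41.6, Dpp4 41.0 and Lct 8.44.

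The other enterocyte-like cluster, 237 cells led by Fabp1 and Gstm3, came almost whole from day 0 (232 cells). It had more Alpi (1667 UMIs per 1000000) and Anpep (102) but less Sis (5078), Slc5a1 (798) and Slc15a1 (1.56). An unnamed cluster of 446 cells led by Clec2h and Guca2a, 231 of them from day 3, had 4808 UMIs per 1000000 of Sis and 1081 of Alpi, and held 31.2% of the Alpi UMIs of the arm. It had 3 M cell markers (Ccl20, Anxa5 and Ccl9) among its 50 leading genes, but none among the first 10. The Fabp1 cluster therefore cannot be told apart from its day, whereas other clusters, such as the Reg1 cluster, held cells of several days. No test was made between clusters.

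Enterocyte-like cells averaged 45.4% of the cells on the 3 plates of day 0 (SD 6.19), 8.23% on day 1, 3.30% on day 2, 11.8% on day 3, 6.45% on day 5 and 1.03% on day 6. M cell-like cells averaged 17.6%, 29.9% and 24.4% on days 1, 2 and 3, and stem-like cells 30.3% on day 6. Day 3, which held the 3 highest plate levels of Sis of the arm, had a smaller enterocyte-like share than day 0. Cells of unnamed clusters, the Clec2h cluster among them, averaged another 36.3% on day 3 and 48.1% on day 0. The size of that contrast therefore depends on how clusters were named. The part of these shares in the changes was not tested. Within the Reg1 cluster, Sis stood at 13518 UMIs per 1000000 in the 60 cells of day 1, 20599 in the 95 cells of day 3 and 20637 in the 38 cells of day 5. On the plates these values were 11964, 15053 and 16139.5 on day 1, 21348, 21254 and 19421 on day 3 and 19926, 20448 and 21373 on day 5, so that day 1 did not overlap the later days. Alpi in the same cells ran down instead, with 1505, 1643 and 1824 UMIs per 1000000 on the plates of day 1, 1173, 1395 and 1159 on day 3 and 819.8, 942 and 546 on day 5.

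**Figure D4:**
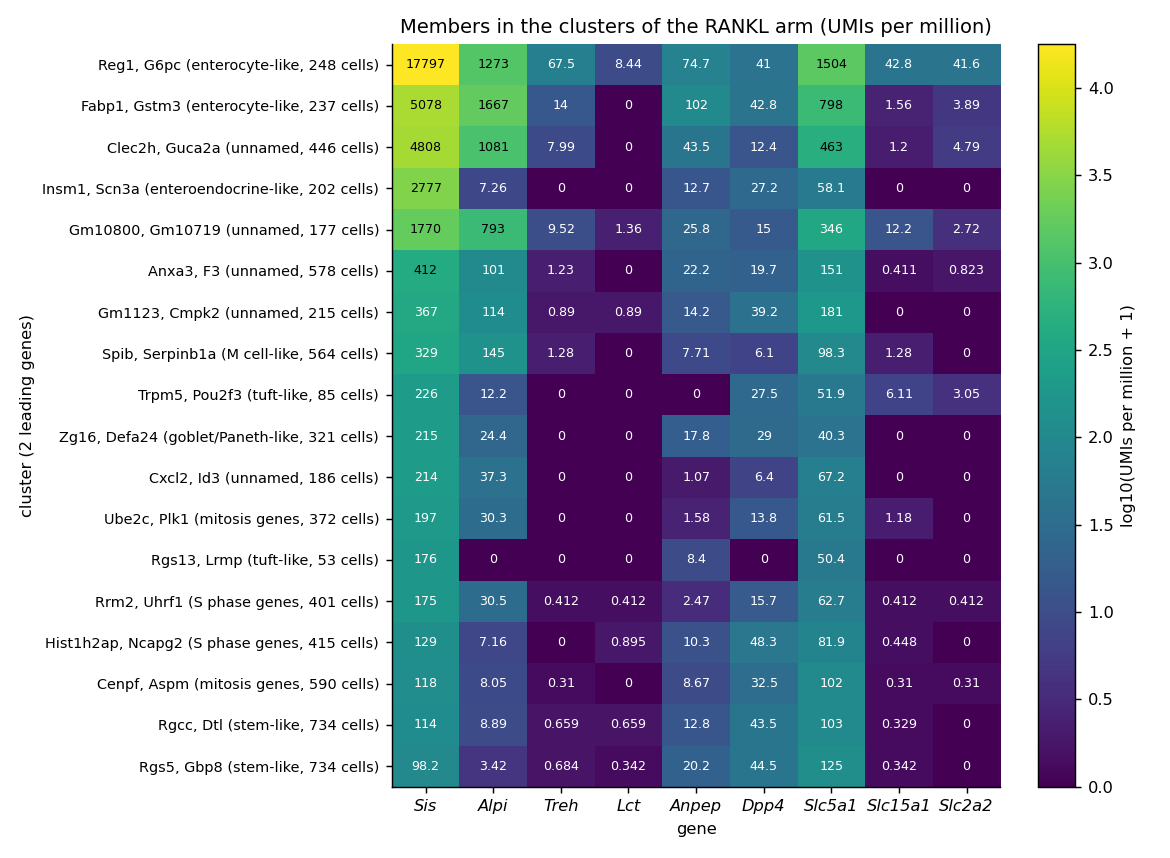
UMIs per 1000000 of each member (columns) in the 18 clusters of the RANKL arm (rows, by their 2 leading genes, in order of Sis), coloured on a log10(x + 1) scale with the value printed. An enterocyte-like cluster has the highest level of every member except Dpp4, and the enteroendocrine-like cluster has 2777 UMIs per 1000000 of Sis but 7.26 of Alpi.

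Enteroendocrine-like cells (202 cells led by Insm1, Scn3a and Ghrl) carried Sis. It was at 2777 UMIs per 1000000 there, Slc5a1 at 58.1, Dpp4 at 27.2, Anpep at 12.7 and Alpi at 7.26, and Treh, Lct, Slc2a2 and Slc15a1 had no UMI. The 2 tuft-like clusters, pooled over days, were taken as a reference on the assumption that they lack these genes. In them Sis was at 226 and 176, Alpi at 12.2 and 0 and Slc5a1 at 51.9 and 50.4. After every cell was thinned to 1000 UMIs, 72.3% of the enteroendocrine-like cells had a Sis UMI (85.1% before thinning; median depth 2473 UMIs), against 17.6% of the larger tuft-like cluster (41.2% before thinning; median depth 3139 UMIs) and 9 of the 53 cells of the smaller (24.5% before thinning; median depth 1964 UMIs). On the 8 plates with at least 10 such cells, all of days 6 to 9, Sis in enteroendocrine-like cells lay between 1528 and 4035 UMIs per 1000000 and Alpi at 0. For Alpi the enteroendocrine-like cells lay between the values of the 2 tuft-like clusters. Whether such values are background was not tested.

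Dpp4 was the member least tied to enterocyte-like cells. It stood at 43.5 and 44.5 UMIs per 1000000 in the 2 stem-like clusters, at 48.3 in an S phase cluster led by Hist1h2ap, and at 41.0 and 42.8 in the enterocyte-like clusters, but at 6.10 in M cell-like cells and 12.4 in the Clec2h cluster. The 2 stem-like clusters held 14.9% and 14.7% of its UMIs with 9.42% and 9.06% of all UMIs.

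Over all cells thinned to 1000 UMIs, 58.0% of day 0 cells of the RANKL arm had a Sis UMI (80.9% before thinning), 27.3% of day 1 cells (64.6%), 55.7% of day 3 cells (89.0%), 33.6% of day 5 cells (69.3%) and 12.2% of day 6 cells (26.6%). The thinned shares of days 6 to 9, from 11.1% to 17.3%, were about as low as in tuft-like cells pooled over days. Whether they are background was not tested. Among cells with 5 or more Sis UMIs after thinning, Alpi was seen in 78.7% of 94 cells on day 0, 70.3% of 64 cells on day 1, 57.7% of 52 cells on day 2, 61.1% of 180 cells on day 3, 62.5% of 24 cells on day 4 and 43.6% of 55 cells on day 5. It was seen in 22.7% of 22 cells on day 6, 50.0% of 20 cells on day 7, 28.6% of 35 cells on day 8 and 23.5% of 34 cells on day 9, so the share was not lower on each later day. Slc5a1 was seen in 64.9%, 68.8%, 36.5%, 58.3%, 58.3%, 67.3%, 31.8%, 60.0%, 34.3% and 41.2% of the same cells on days 0 to 9, in order. These cells were not split by class. On days 6 to 9 enteroendocrine-like cells, which carried Sis but little Alpi, averaged 2.42% to 7.36% of all cells by day. Enterocyte-like cells averaged 0.130% to 1.03% on those days. The part of cell classes in the Alpi and Slc5a1 shares was not tested. Cells with no UMI of any member after thinning made up 27.2% of day 0, 64.6% of day 1, 34.1% of day 3 and 75.5% of day 6.

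In the arm with CSRM617, most Sis UMIs came from a cluster of 149 cells led by Reg3b, Ccl9, Cyp1a1 and Apoc3. It stayed unnamed, because 6 M cell markers stood among its 50 leading genes while genes of lipoproteins led it. It was 8.91% of the cells and held 52.0% of the Sis UMIs, 49.1% of the Anpep UMIs and 29.1% of the Slc5a1 UMIs of the arm. Of its cells, 79 were from day 3, with 9192.5 and 9205 UMIs per 1000000 of Sis and 237 and 268 of Anpep on the 2 plates of that day. Its 45 cells of day 2 had 1707 and 971 UMIs per 1000000 of Sis but 223 and 183 of Anpep. An enterocyte-like cluster of 92 cells led by Cyp3a11 and Cyp2b10, 64 of them from day 1, held 31.8% of the Alpi UMIs and 21.7% of the Sis UMIs of the arm.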

How the data were processed

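The deposited tables hold raw counts of UMIs per gene and well; the authors made them with kallisto, bustools and Seurat 3.1.5 on GRCm38, per the submitters' processing notes. The deposited natural log tables were not used for tests: over 500 genes in each arm they equalled ln(1 + count scaled to 10000 per well).

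Wells with at least 1000 UMIs were kept (6558 of 6636 with RANKL, 1673 of 1903 with RANKL+CSRM617) and summed per plate. Sums were tested with edgeR 4.0.16 (R 4.3.3, filterByExpr, TMM, quasi-likelihood, Benjamini-Hochberg), with all days of an arm in a fit, and with both arms in a fit on days 0 to 6. DESeq2 1.42.0 was an alternative, and the code was tested on simulated data. Cells were thinned to 1000 UMIs for shares and clustered per arm without the members (scanpy 1.11.5, leidenalg 0.10.2; 2000 variable genes, 30 principal components, 15 neighbours, resolution 1). Each well was sorted to hold a single cell, and no doublet caller was run. Intervals and limits cover counting error only.

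The members and lists were chosen with earlier results of these data known. From each list the 3 called genes with the largest change were named in the main comparisons. A gene that this rule names is not reported here. Comparisons of days 5 and 9 against 6 with RANKL, of single days between arms, the change to day 3, the tests without a filter of members below it, and the requirement of a marker among 10 leading genes for a cluster name were chosen after seeing the data. Same-numbered plates did not deviate together (median r = 0.01 in each arm), so the numbers do not pair plates.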

Additional observations from a re-analysis of the deposited data

Results flagged for a closer look

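Changes from day 0 that differed between RANKL+CSRM617 and RANKL organoids, by the interaction term of an edgeR quasi-likelihood fit with Benjamini-Hochberg adjustment, are listed here as differences of log2 changes. Each is higher with CSRM617. To days 1 to 3 the difference was 1.36 for Alpi, 2.23 for Anpep and 1.47 for Slc5a1. To days 4 to 6 it was 2.35 for Alpi, 1.59 for Sis and 1.18 for Slc5a1. To day 3 alone, a comparison chosen after seeing the data, it was 2.00 for Alpi, 2.45 for Sis, 3.72 for Anpep and 2.31 for Slc5a1. The arms share no plates, and their day 0 levels differed for Alpi, Sis and Slc5a1. Several of these calls were lost when a plate was left out or under other settings, as given above.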

How the results depend on the processing

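No called member reversed its direction under the alternatives run. Of the results with a plate left out, 998 kept their side of the threshold, 80 lost a call and 10 gained one. Of those under other settings, 1143 kept it, 15 lost a call and 26 gained one. The count of members called moved by over 1.5 times in these cases. Without a filter on low counts it was 4 for RANKL day 3 against day 0, for RANKL day 9 against day 6 and for RANKL+CSRM617 day 6 against day 3. With only the groups compared it was 4 for RANKL day 9 against day 6 and 3 for RANKL+CSRM617 day 6 against day 3. That last comparison also gave 2 with DESeq2, 3 with cells of 2000 or more UMIs, 2 with all deposited cells, 0 with each cell weighted equally and 2 without the most abundant gene. Between the arms on days 4 to 6 the count was 1 with DESeq2, with cells of 2000 or more UMIs, with all deposited cells and with each cell weighted equally. The change to days 4 to 6 gave 1 with cells of 2000 or more UMIs. The causes were not tested.

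With 1 plate left out, the members called with RANKL numbered 4 to 4 on day 1, 2 to 2 on day 3, 3 to 4 on day 5, 5 to 6 on day 6 and 3 to 5 on day 9 against day 0, 2 to 3 on day 3 against day 1, 4 to 4 on day 6 against day 3 and 1 to 2 on day 9 against day 6. With RANKL+CSRM617 they numbered 0 to 0 on day 1, 3 to 5 on day 3 and 0 to 1 on day 6 against day 0, 4 to 4 on day 3 against day 1 and 0 to 0 on day 6 against day 3. Between arms they numbered 2 to 3 on day 0, 1 to 3 on days 1 to 3, 0 to 1 on days 4 to 6, 1 to 3 on day 3, 1 to 3 on day 5 and 2 to 3 on day 6, and for the changes 1 to 3 to days 1 to 3, 1 to 3 to days 4 to 6 and 3 to 5 to day 3.

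A replicate block on the plate numbers, which do not pair the plates (r from -0.38 to 0.29 with RANKL and from -0.31 to 0.29 with RANKL+CSRM617), left each count as it was, for example 4 on day 1 and 6 on day 6 of RANKL and 5 on day 3 of RANKL+CSRM617, all against day 0. Shares of cells with a UMI depended on depth: 94 of 102 were higher by more than the spread between plates without thinning, and 72 of 102 after thinning to 2000 UMIs.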
